A study of Mus musculus with 6 samples.

Results

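Mpo, Elane, Prtn3, Ctsg, Ms4a3, Prss57, Cst7, Nkg7 and Plac8 are genes of the neutrophil primary granule and of the promyelocyte, the early granulocyte precursor in which that granule is made. They were chosen by name as azurophil (primary) granule and promyelocyte genes, and all 9 were found among the 56750 rows of the expression table by their Ensembl identifier. All 9 also passed the filter on low values, as did 13496 genes in total. RNA was sequenced from Lin- Sca1+ cKit+ (LSK) bone marrow cells of C57BL/6 mice, a sorted fraction that is enriched in hematopoietic stem cells and multipotent progenitors. In the colitis group, called DIC, mice had been given dextran sulfate sodium (DSS), a chemical that injures the colon lining, at 2.5% for 5 days. The control group is labelled control and nothing more is said of its handling. Each group had 3 mice and 3 libraries, which carry the table's own numbers (DIC 1, 2 and 3, control 1, 2 and 4). Neither age nor sex of the mice is stated. The question was how the 9 genes differed between the groups and how they stood to each other within a library.

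Neutrophil granules are filled in the order in which the cell makes their proteins. Promyelocytes transcribe myeloperoxidase and a set of serine proteases and pack them into primary granules, and later precursors shut these genes off and turn to secondary granule proteins such as lactoferrin. The proteases are made as inactive precursors, trimmed by the cysteine protease cathepsin C and held in the granule on the proteoglycan serglycin. Transcription factors of the ETS, C/EBP, MYB and RUNX families are known to act on their promoters.

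The sequence upstream of 4 of these genes is shown to set the protease genes beside each other and beside Mpo. RefSeq windows of 250 bases upstream of the annotated start (build GRCm38.p6) were found for 8 of the 9 genes, all but Prss57. Shown are Elane and Prtn3, which lie next to each other on chromosome 10 and whose expression is set side by side below, and Mpo and Ctsg, which lie elsewhere. The windows are chr10:79886062-79886311 (+ strand) for Elane, chr10:79879417-79879666 (+) for Prtn3, chr11:87793534-87793783 (+) for Mpo and chr14:56102575-56102824 (-) for Ctsg. Each is written 5′ to 3′ on the strand of the gene and ends at the base before the start. Capitals mark matches, on either strand, to AGGAAGT (the ETS type bound by PU.1), GCAAT (a C/EBP half-site), CAACGG (MYB) and TGTGGT (RUNX), and matches on the printed strand alone to TATAA (TATA box).
Elane: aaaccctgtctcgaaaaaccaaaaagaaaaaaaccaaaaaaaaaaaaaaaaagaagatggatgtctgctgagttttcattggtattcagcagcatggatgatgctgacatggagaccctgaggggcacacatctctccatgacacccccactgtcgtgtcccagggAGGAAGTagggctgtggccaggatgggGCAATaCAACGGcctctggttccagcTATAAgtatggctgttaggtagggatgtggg
Prtn3: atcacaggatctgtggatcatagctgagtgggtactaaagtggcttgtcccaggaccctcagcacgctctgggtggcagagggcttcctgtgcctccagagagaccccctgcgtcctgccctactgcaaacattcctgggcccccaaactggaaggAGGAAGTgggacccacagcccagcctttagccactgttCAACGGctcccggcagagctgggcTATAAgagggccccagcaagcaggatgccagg
Mpo: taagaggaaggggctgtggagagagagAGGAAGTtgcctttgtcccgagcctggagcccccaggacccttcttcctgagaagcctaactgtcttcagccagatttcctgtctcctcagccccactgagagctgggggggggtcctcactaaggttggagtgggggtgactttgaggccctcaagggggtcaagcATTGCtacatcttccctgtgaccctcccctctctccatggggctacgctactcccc
Ctsg: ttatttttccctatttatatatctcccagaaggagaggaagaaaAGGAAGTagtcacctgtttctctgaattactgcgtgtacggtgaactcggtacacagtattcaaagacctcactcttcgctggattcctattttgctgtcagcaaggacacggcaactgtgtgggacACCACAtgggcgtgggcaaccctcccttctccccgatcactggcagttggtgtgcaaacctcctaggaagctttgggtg

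AGGAAGT was present in the windows of Mpo, Elane, Prtn3, Ctsg and Cst7, 5 of 8 genes, and in 7.69% of all 32851 promoter windows. In Elane and Prtn3 the same 3 matches followed each other in the same order. AGGAAGT began 84 and 94 bases before the start, CAACGG 51 and 56, and TATAA 31 and 32. No other of the 8 genes had CAACGG or TATAA in these windows, against 4.05% and 16.0% of all windows. TGTGGT was found in Ctsg, Cst7, Nkg7 and Plac8 (14.0% of windows) and GCAAT in Mpo, Elane and Plac8 (23.1% of windows). A match describes letters only. The motifs were picked from general knowledge of these genes and with these sequences in view.

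The 9 genes covered a wide range of levels, compared here as TPM, an abundance scaled by transcript length and to a fixed library total. In the controls the order of the means was Mpo, Elane, Prtn3, Plac8, Ctsg, Nkg7, Ms4a3, Cst7 and Prss57. Ranges of Mpo and Elane overlapped in the controls, as did those of Prtn3, Plac8 and Ctsg, while Nkg7, Ms4a3, Cst7 and Prss57 stood apart from their neighbours in that order. In DIC the mean of Elane lay just above that of Mpo, with overlapping ranges, and Plac8, Ctsg, Nkg7 and Ms4a3 lay closer together. Mpo ranked 4th to 8th among the 13496 genes, depending on the library, Elane 5th to 8th, Prtn3 13th to 31st and Prss57 684th to 1011th. Summed over the 9 genes, the share of a library's TPM was 2.926%, 3.682% and 3.163% in the DIC libraries, against 4.034%, 3.464% and 4.126% in the controls.

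Markers of the sort were below all 9 genes, least so below Prss57. Kit, the receptor that defines the cKit+ gate, lay between 54.2 and 99.5 TPM, and Ly6a, which encodes Sca1, between 15.5 and 49.9. The late neutrophil genes S100a8 and S100a9 together took from 2.384% of TPM (control 4) to 17.52% (DIC 1). How pure the sorted cells were was not tested, nor which cells the RNA of the 9 genes came from. One library stood apart from its group. Control 2 had 3.188% of its TPM in 10 secondary granule genes and 9.68% in 13 late neutrophil genes. Controls 1 and 4 had 1.044% and 0.6815% in the former and 3.355% and 2.46% in the latter, and DIC libraries 4.077% to 4.599% and 11.76% to 18.52%. The comparisons of the 9 genes are therefore also given without control 2.

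None of the 9 genes differed between DIC and control past the threshold. Their estimated fold changes ranged from little difference in Elane and Prss57 to lower values of Plac8 and Ctsg in every DIC library. None of the other genes differed from Mpo past the threshold either, so a change unequal to that of Mpo was not shown. Pairs among the other genes were not tested. By limma on log2(TPM + 1) with Benjamini-Hochberg adjustment, 0 of 9 passed at 0.05, where 0.0593% of all tested genes did. At an unadjusted p under 0.05, 2 of 9 were lower (13.8% of all genes) and 0 higher (6.43%). The groups did not overlap in 2 of 9, both lower in DIC (18.4% of all genes), and in 0 of 9 with higher values in DIC (7.08%). The fold change was negative in 8 genes and positive in 1, where 58.5% of all tested genes were negative. The median of the 9 was -0.35 (log2), beside -0.08 over all tested genes.

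**Figure D1:**
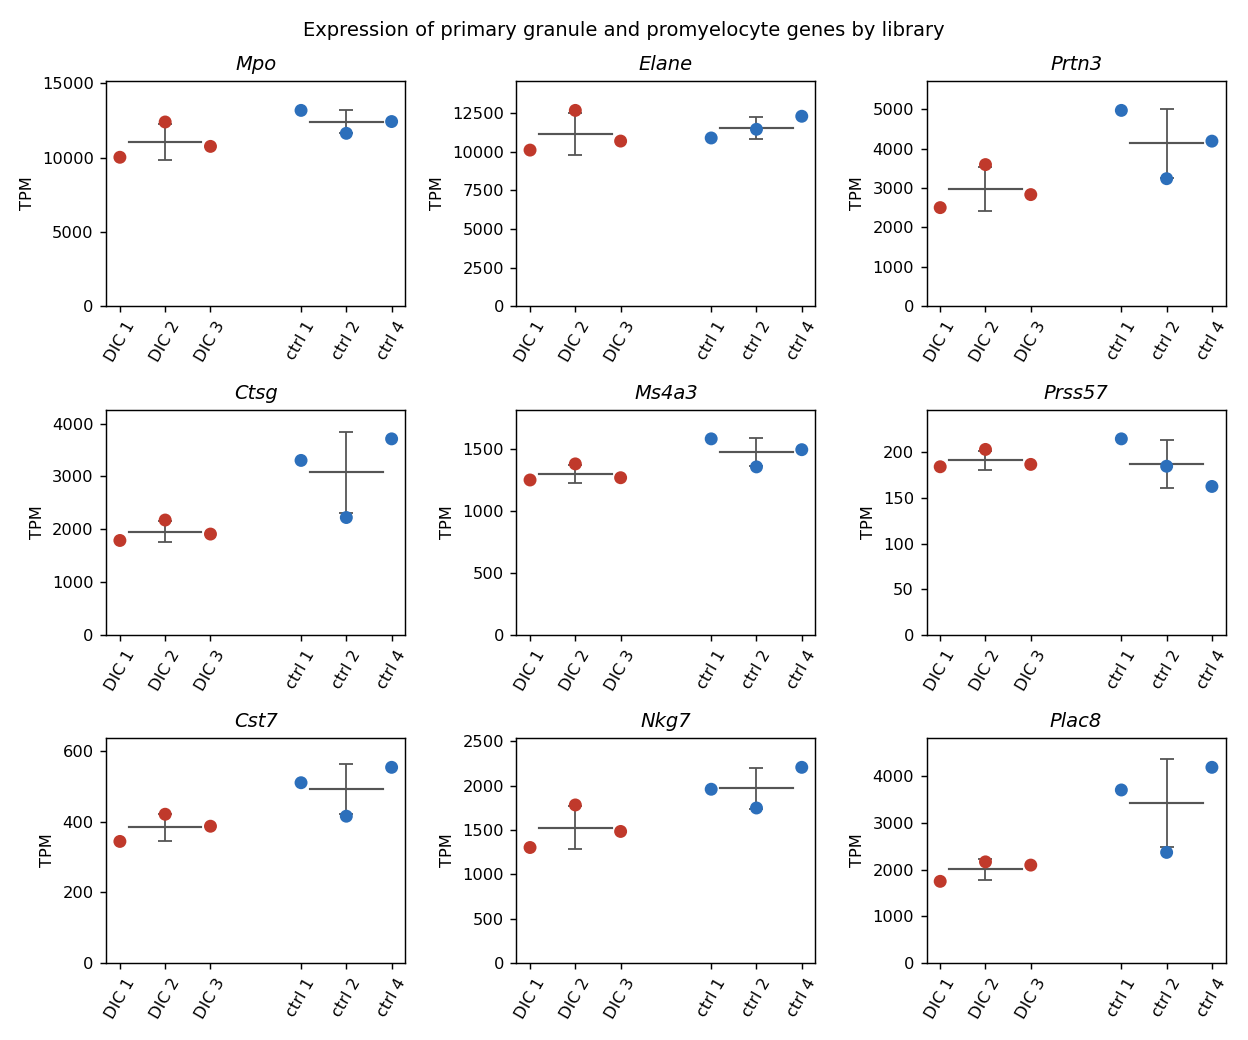
TPM of each gene (vertical axes, starting at 0 and scaled per gene) in the DIC libraries (red) and the controls (blue, ctrl), with the group mean as a horizontal line and its SD as a bar. The groups are apart for Ctsg and Plac8, where control 2 lies above the DIC values but nearest to them. For every other gene control 2 lies within the DIC range.

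Mpo, which encodes the heme peroxidase that makes hypochlorous acid, measured 10026, 12402 and 10759 TPM in the DIC libraries, in numerical order as throughout, and 13183, 11639 and 12432 in the controls. DIC 2 lay within the controls and the other DIC libraries below them. The means were 11063 ± 1217 and 12418 ± 772 TPM (SD, n = 3 each). This was a log2 fold change of -0.17 ± 0.24 (SE; limma adjusted p = 0.7144). Its transcript overlaps the predicted gene Gm11505 on the opposite strand, which was listed at 29.98 to 45.76 TPM, and the sources used here do not say whether strand was used.

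Elane encodes neutrophil elastase. It was the steadiest of the 9, at 10118, 12692 and 10703 TPM in DIC and 10904, 11467 and 12312 in the controls. Its highest value was 1.25 times its lowest, and DIC libraries lay both above and below the controls. The means were 11171 ± 1349 and 11561 ± 709 TPM (SD, n = 3 each), with a log2 fold change of -0.05 ± 0.24 (limma adjusted p = 0.913).

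Prtn3, the gene of proteinase 3, is the nearest upstream neighbour of Elane in the RefSeq annotation. It measured 2501, 3593 and 2831 TPM in DIC and 4968, 3235 and 4188 in the controls. DIC 2 exceeded control 2, so the groups overlapped. The means were 2975 ± 560 and 4131 ± 868 TPM (SD, n = 3 each). This was a log2 fold change of -0.47 ± 0.24 (limma adjusted p = 0.3105). Plppr3, which encodes a membrane phospholipid phosphatase-related protein, overlaps Prtn3 on the opposite strand. It measured 49.9, 76.0 and 56.5 TPM in DIC and 105, 87.4 and 90.0 in the controls, without overlap (limma adjusted p = 0.2121). Without a stated strand setting, it is unknown whether reads from the stretch that both genes cover were told apart.

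Ctsg encodes cathepsin G, a protease with chymotrypsin-like activity. It measured 1785, 2173 and 1907 TPM in DIC and 3304, 2221 and 3713 in the controls. All DIC values were lower than all control values, though DIC 2 and control 2 nearly met. The means were 1955 ± 198 and 3079 ± 771 TPM (SD, n = 3 each). The log2 fold change of -0.63 ± 0.23, or 35.2% lower, did not pass (unadjusted p = 0.030, limma adjusted p = 0.2194). Its nearest tested neighbour, the basophil protease gene Mcpt8, was at 93.5, 136 and 146 TPM in DIC and 499, 286 and 1122 in the controls. Mcpt8 had a log2 fold change of -2.13 ± 0.46 (limma adjusted p = 0.2121).

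Prss57 encodes a serine protease of the same granule that cleaves after arginine. It was the lowest of the 9, at 184, 203 and 187 TPM in DIC and 215, 185 and 163 in the controls. The control range enclosed the DIC range. The means were 191 ± 10.3 and 187 ± 26.2 TPM (SD, n = 3 each), with a log2 fold change of 0.04 ± 0.14 (limma adjusted p = 0.8902). The proteases therefore ranged from -0.63 for Ctsg to 0.04 for Prss57 on the log2 scale.

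Ms4a3, a 4-pass membrane protein gene that marks granulocyte-monocyte progenitors, measured 1253, 1383 and 1271 TPM in DIC and 1586, 1359 and 1498 in the controls. Here too DIC 2 exceeded control 2. The means were 1302 ± 70.5 and 1481 ± 115 TPM (SD, n = 3 each). This was a log2 fold change of -0.18 ± 0.14 (limma adjusted p = 0.4868).

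Cst7 encodes cystatin F, an inhibitor of lysosomal cysteine proteases that include cathepsin C. It measured 344, 421 and 387 TPM in DIC and 510, 416 and 554 in the controls, again with DIC 2 above control 2. The means were 384 ± 38.6 and 493 ± 70.7 TPM (SD, n = 3 each). The log2 fold change was -0.35 ± 0.15 (limma adjusted p = 0.2545).

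Nkg7, which encodes a membrane protein of cytotoxic granules, measured 1302, 1782 and 1483 TPM in DIC and 1958, 1747 and 2206 in the controls. The groups overlapped through DIC 2 and control 2. The means were 1522 ± 242 and 1971 ± 229 TPM (SD, n = 3 each). The log2 fold change was -0.38 ± 0.18 (limma adjusted p = 0.2906).

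Plac8 encodes a small cysteine-rich protein of myeloid and lymphoid precursors. It varied most of the 9, at 1750, 2167 and 2098 TPM in DIC and 3707, 2370 and 4192 in the controls. All DIC libraries were below all controls, with control 2 the nearest to them. The means were 2005 ± 224 and 3423 ± 944 TPM (SD, n = 3 each). The log2 fold change of -0.74 ± 0.25, or 40.0% lower, did not pass (unadjusted p = 0.021, limma adjusted p = 0.2134). Its highest value was 2.39 times its lowest, and its SD over the 6 libraries was 0.499 on the log2 scale, beside a median of 0.285 for all tested genes.

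The DIC libraries were ordered in the same way by all 9 genes. DIC 1 was the lowest DIC library, DIC 3 the middle one and DIC 2 the highest. The share of TPM in late neutrophil genes ran the other way, at 18.52% in DIC 1, 15.1% in DIC 3 and 11.76% in DIC 2. Most of that share was S100a8 and S100a9, the calprotectin genes, at 17.52%, 14.56% and 11.5%. The other 11 late genes took 1.0%, 0.544% and 0.259% in the same order of libraries. Among controls, 7 of the 9 genes were lowest in control 2, the exceptions being Elane and Prss57. The shares of all tested genes with either pattern were not counted, so neither is shown to be particular to the 9. TPM of a library add up to a fixed total, which late neutrophil and granule genes shared with the 9 genes in these amounts. In bulk RNA fewer cells of a type and less RNA per cell cannot be told apart.

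Rescaling TPM after removal of the secondary granule and late neutrophil genes moved the median of all tested genes from -0.08 to 0.106. On this scale 5 of the 9 genes were negative, and Mpo, Elane and Ms4a3 turned to 0.04, 0.16 and 0.03. Ctsg and Plac8 were at -0.42 and -0.53. Relative to all tested genes, the median of the 9 differed by -0.27 before and -0.25 after rescaling, and by -0.14 after quantile normalization. Rescaling shifts all genes of a library by nearly the same amount, so the values before and after it had to be close. They also cover different sets of tested genes, 13496 before and 13855 after rescaling.

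Ctsg and Plac8 passed the threshold, lower in DIC, in 1 of the 6 fits that left out a library, the fit without control 2. That library was singled out by its granule gene shares and was the lowest control in 7 of the 9 genes, so its removal is no independent support. Ctsg had a log2 fold change of -0.85 (limma adjusted p = 0.02529) and Plac8 of -0.98 (limma adjusted p = 0.02252). With another library left out the adjusted p ran from 0.2716 (without DIC 2) to 0.5259 (without DIC 1) for Ctsg and from 0.2639 to 0.517 for Plac8, and without control 4 it was 0.463 and 0.4508. The fit without control 2 called 2 of 9 genes, while 8.45% of all tested genes were lower and 3.93% higher past the threshold in the same 5 libraries. Prtn3 was at -0.63 (limma adjusted p = 0.0817), Cst7 at -0.47 (0.05906), Nkg7 at -0.46 (0.1183), Mpo at -0.22 (0.4057) and Elane at -0.06 (0.8417). All genes but Elane and Prss57, 7 of 9, were then lower in every DIC library than in controls 1 and 4, as were 30.9% of all tested genes.

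**Figure D2:**
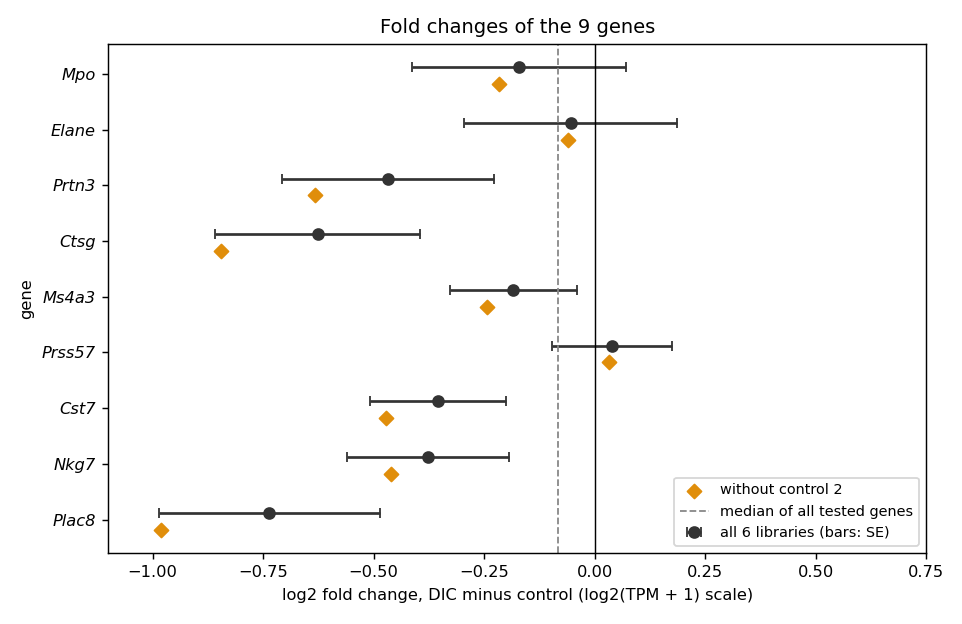
Log2 fold change of each gene (horizontal axis, DIC minus control on the log2(TPM + 1) scale) with all 6 libraries (circles, bars are the SE) and without control 2 (diamonds). The dashed line is the median of all tested genes at -0.08, and Plac8, Ctsg and Prtn3 lie farthest below it.

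Ratios within a library do not depend on the total to which that library was scaled, so the 8 other genes were divided by Mpo. Against Mpo, Ctsg and Plac8 were lower in every DIC library, the ratio of Ms4a3 changed little, and Elane and Prss57 were slightly higher. Elane to Mpo was 1.01, 1.02 and 0.995 in DIC and 0.827, 0.985 and 0.99 in the controls, all 3 DIC values being above the controls by a small margin. Ctsg to Mpo was 0.178, 0.175 and 0.177 in DIC and 0.251, 0.191 and 0.299 in the controls. The DIC libraries lay close together, and the controls were all higher and spread widely. Plac8 to Mpo was 0.175, 0.175 and 0.195 in DIC against 0.281, 0.204 and 0.337.

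The ratio of Ms4a3 to Mpo stayed between 0.111 and 0.125 over the 6 libraries, and the groups overlapped. Nkg7 to Mpo was 0.13 to 0.144 in DIC and 0.149 to 0.177 in the controls. Prss57 to Mpo was 0.0164 to 0.0184 in DIC and 0.0131 to 0.0163 in the controls, so that the groups were apart by a very small margin. The ratios of Prtn3 and Cst7 overlapped between the groups. In the limma fit relative to Mpo, 0 of 8 genes passed, where 0.0593% of all genes did, and 2, Plac8 and Ctsg, had an unadjusted p under 0.05. The log2 ratio differed by -0.57 ± 0.21 for Plac8 (limma adjusted p = 0.3438) and -0.46 ± 0.19 for Ctsg (limma adjusted p = 0.3725). Ratios did not overlap in 3 of 8 genes with lower values in DIC (8.4% of all genes) and in 2 of 8 with higher values (7.91%). Without control 2 the differences were -0.76 for Plac8 (limma adjusted p = 0.05544) and -0.63 for Ctsg (limma adjusted p = 0.06941).

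**Figure D3:**
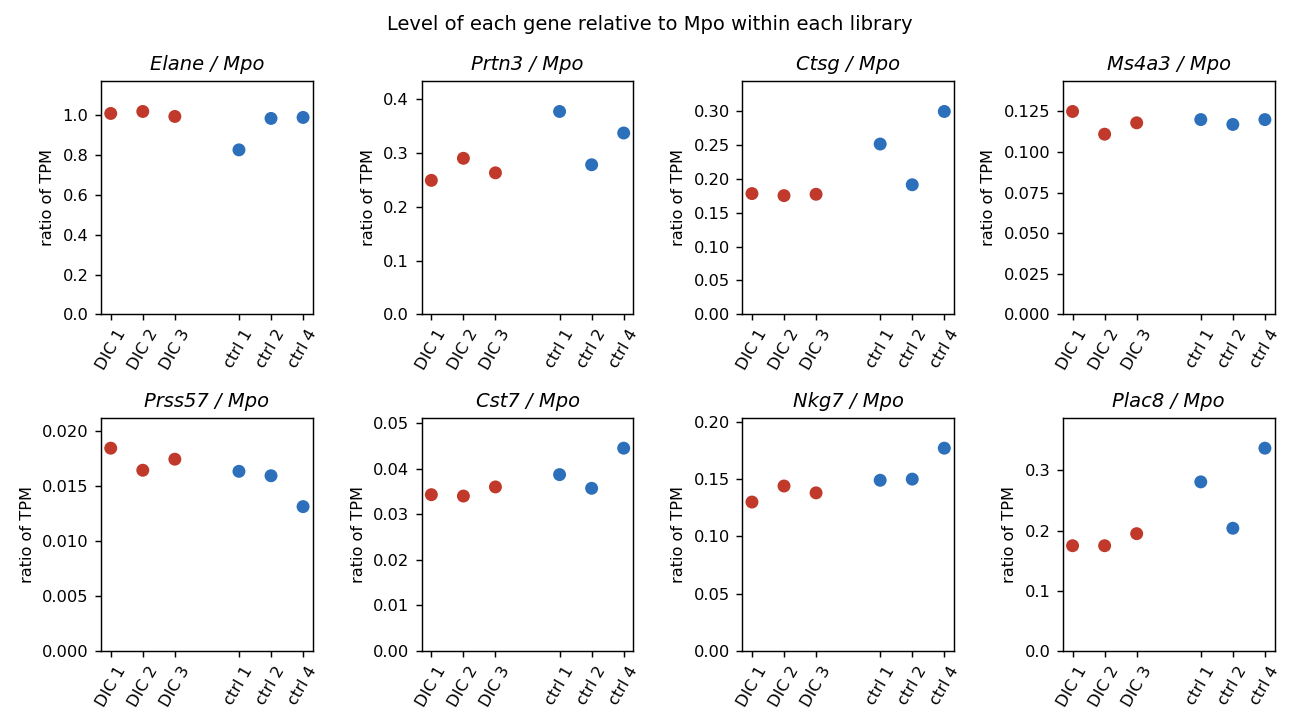
Ratio of the TPM of each gene to that of Mpo (vertical axes, starting at 0) in DIC (red) and control (blue, ctrl) libraries. The 3 DIC ratios of Ctsg lie between 0.175 and 0.178, below the controls, and those of Ms4a3 cover the control values.

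Among the proteases themselves, Ctsg to Elane was 0.176, 0.171 and 0.178 in DIC and 0.303, 0.194 and 0.302 in the controls. Prtn3 to Elane, the ratio of the 2 adjacent genes, was 0.247, 0.283 and 0.265 in DIC and 0.456, 0.282 and 0.34 in the controls. The groups overlapped there by the narrow margin between DIC 2 and control 2. Ctsg to Prtn3 overlapped as well, at 0.605 to 0.714 in DIC and 0.665 to 0.887 in the controls.

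Genes that process, store or inhibit the granule proteases showed no common direction. Of 12 tested, 0 passed the threshold in either direction, 6 were positive and 6 negative, and the median was -0.09. Srgn, the gene of serglycin, had means of 2373 ± 219 TPM for DIC and 2720 ± 480 for control (SD, n = 3). Serpinb6a, a cytosolic protease inhibitor, was at 20.0, 20.6 and 18.2 TPM in DIC and 11.8, 15.1 and 10.4 in the controls, without overlap (limma adjusted p = 0.2121). Cst3, which encodes the secreted inhibitor cystatin C, was at 539, 632 and 599 TPM against 938, 766 and 1106, also without overlap (limma adjusted p = 0.2121). Without control 2, 2 genes of this list were higher and 2 lower past the threshold, where 3.93% and 8.45% of all tested genes were.

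Other proteins of the azurophil granule also had 0 of 15 tested genes past the threshold, with a median of 0.09. Bpi was at most 0.04 TPM and was not tested. The highest was Lyz2, which encodes lysozyme and is also made by later neutrophils and macrophages. It measured 8728, 5187 and 6390 TPM in DIC and 1632, 4303 and 1316 in the controls (log2 fold change 1.66 ± 0.46, limma adjusted p = 0.2121). Its libraries did not overlap, in the direction opposite to Ctsg. Cd63, a tetraspanin of the granule membrane, measured 958 ± 14.6 and 855 ± 145 TPM, and Glb1, the lysosomal beta-galactosidase, 28.2 ± 2.88 and 40.4 ± 2.55 (SD, n = 3 each). Without control 2, 2 of these 15 were higher and 2 lower past the threshold, where 3.93% and 8.45% of all tested genes were.

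Chaperones and enzymes that fold myeloperoxidase and supply its heme had a median of 0.05, with 0 of 11 past the threshold. Calr, the chaperone calreticulin, was at 726, 1046 and 973 TPM in DIC and 1573, 1077 and 1428 in the controls (log2 fold change -0.57 ± 0.21, limma adjusted p = 0.2199). The 3 DIC values lay below the controls. The disulfide isomerase Pdia3 was at 409 ± 36.4 against 545 ± 87.8 TPM and the chaperone Hspa5 at 524 ± 98.3 against 688 ± 127 (SD, n = 3 each), both with overlap. Without control 2, 0 of the 11 were higher and 1 lower past the threshold, where 3.93% and 8.45% of all tested genes were.

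Other genes of early granulocytes had a median of 0.21, with 9 of 12 positive and 0 past the threshold. Fcnb, which encodes ficolin B, was at 1217, 1518 and 1272 TPM in DIC and 488, 1352 and 500 in the controls, so that control 2 reached the DIC values (limma adjusted p = 0.2383). Igsf6, an immunoglobulin-superfamily gene, was at 237 ± 7.16 and 175 ± 27.3 TPM, and Ly6c2, a surface antigen of monocytes and their precursors, at 4872 ± 120 and 5866 ± 1352 (SD, n = 3 each). Cd34, a progenitor marker, was at 83.9 ± 17.5 and 119 ± 14.8. Without control 2, 2 of the 12 were higher and 1 lower past the threshold, where 3.93% and 8.45% of all tested genes were.

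Regulators of promyelocyte genes had a median of -0.13, with 8 of 10 negative and 0 past the threshold. Spi1, the gene of PU.1, had means of 197 ± 16.7 TPM for DIC and 213 ± 17.1 for control (SD, n = 3). Irf8, a factor of monocyte and dendritic cell development, was at 48.7, 75.5 and 61.1 TPM in DIC and 184, 94.5 and 161 in the controls, without overlap (log2 fold change -1.20 ± 0.27, limma adjusted p = 0.2121). Cebpe, a factor needed for secondary granule genes, was at 180, 212 and 216 TPM in DIC and 95.4, 231 and 95.0 in the controls. Klf4, a monocyte factor, was at 1.62 to 1.93 TPM in the DIC libraries, 6.44 and 5.61 in controls 1 and 4, and 1.54 in control 2. In both of these genes control 2 lay with the DIC libraries or beyond them. Without it, 1 of the 10 regulators was higher and 2 lower past the threshold, where 3.93% and 8.45% of all tested genes were.

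Genes of the next stages had positive fold changes, where those of Ctsg and Plac8 were negative. All 10 secondary granule genes had positive fold changes (median 1.94) and 8 did not overlap, where 7.08% of all tested genes were higher without overlap. With all libraries 0 passed the threshold, and without control 2, 8 did, where 3.93% of all tested genes were higher. Ngp measured 17917, 15596 and 16508 TPM in DIC and 3448, 11714 and 2272 in the controls. Camp, the cathelicidin gene, measured 9651, 10500 and 10505 against 2716, 9226 and 1988, which made its ratio to Mpo 0.847 to 0.976 in DIC and 0.206, 0.793 and 0.16 in the controls. Ltf, the lactoferrin gene, was at 2706 ± 504 and 660 ± 698 TPM, and Lcn2, which encodes a siderophore-binding protein, at 4327 ± 736 and 1350 ± 1106 (SD, n = 3 each). All 13 late neutrophil genes were positive too (median 1.93), with 0 past the threshold and 6 without control 2, against the same 3.93%. Of these 13, 8 did not overlap, beside the same 7.08%, and 5 overlapped. DIC 2 was near control 2 in the 11 late genes other than S100a8 and S100a9, which summed to 0.259% and 0.223% of TPM there. These 11 genes took 1.0% and 0.544% in DIC 1 and 3, and 0.115% and 0.0766% in controls 1 and 4. S100a8 measured 105480, 63966 and 86346 TPM in DIC and 18348, 52974 and 13283 in the controls, and S100a9 59995 ± 9393 and 22068 ± 17000 (SD, n = 3 each). The list also held Ly6g, at 207 ± 149 against 22.8 ± 22.6 TPM, and Cd101, at 4.68 ± 2.94 against 0.59 ± 0.51 (SD, n = 3 each). Summed TPM of the 9 primary granule and promyelocyte genes was 0.636, 0.903 and 0.74 times that of the 10 secondary granule genes in DIC and 3.86, 1.09 and 6.05 times in the controls.

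**Figure D4:**
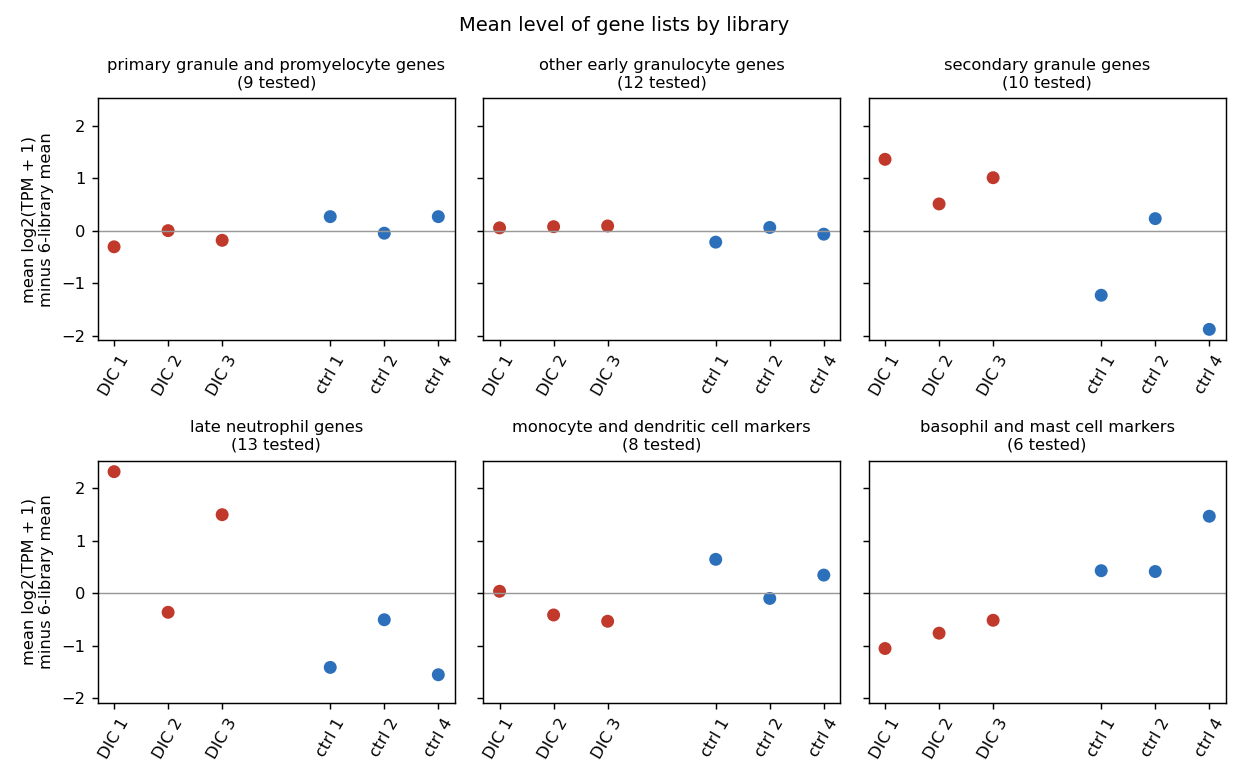
Mean log2(TPM + 1) over the tested genes of 6 lists, as the difference from the mean of the 6 libraries (vertical axis), in DIC (red) and control (blue, ctrl) libraries. The primary granule and promyelocyte genes span -0.307 to 0.268, while the secondary granule genes span -1.88 to 1.36 and separate the groups.

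Some of the 9 genes are also used by other blood cells, whose markers were mostly at lower values in DIC. Nkg7 and Cst7 are transcribed in NK and T cells, and summed T and NK cell markers were 18.7 to 34.5 TPM in DIC and 52.8 to 114 in the controls. All 9 tested markers of 14 listed were negative. Among them, Gzmb was at 2.12 ± 0.42 and 11.0 ± 9.19 TPM and Ccl5 at 12.3 ± 3.63 and 37.3 ± 14.7 (SD, n = 3 each), both far below Nkg7 and Cst7. Cd3e, Cd3d, Prf1, Eomes and Tbx21 did not pass the filter on low values.

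Plac8 is also transcribed in monocytes, plasmacytoid dendritic cells and B cells. Summed monocyte and dendritic cell markers were 172 to 273 TPM in DIC and 233 to 597 in the controls, all 8 tested of 10 being negative. Ms4a6c was at 62.5, 65.1 and 42.9 TPM in DIC and 192, 71.0 and 197 in the controls, F13a1 at 87.0 ± 16.0 and 170 ± 99.8 and Siglech, a plasmacytoid marker, at 2.77 ± 1.56 and 6.86 ± 3.81 (SD, n = 3 each). Summed B lineage markers were 104 to 192 and 207 to 467 TPM, all 6 tested of 8 negative, with Cd79b at 40.0 ± 4.20 and 66.3 ± 20.0, Vpreb1 at 33.7 ± 17.8 and 74.5 ± 38.5 and Igll1 at 45.2 ± 21.4 and 101 ± 50.1.

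Basophil and mast cell markers were summed at 314 to 499 TPM in DIC and 947 to 3375 in the controls, with all 6 tested of 8 negative. The mast cell protease Mcpt4 was listed at 0 in every library. Prss34, a basophil protease, measured 132, 169 and 209 TPM in DIC and 864, 415 and 1800 in the controls. Ms4a2, the nearest neighbour of Ms4a3 and a chain of the IgE receptor, was at 7.8, 11.0 and 13.8 TPM against 14.7, 25.3 and 33.4. The part of any of these cells in the values of Nkg7, Cst7, Plac8 or Ctsg was not tested. No gene of these 4 marker lists passed the threshold with all 6 libraries. Without control 2, where Ctsg and Plac8 passed, 2 T and NK, 2 monocyte and dendritic, 3 basophil and mast and 0 B lineage markers also passed, all lower in DIC, beside 8.45% of all tested genes.

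Eosinophil markers were summed at 1788 to 2678 TPM in DIC and 1618 to 4229 in the controls, with 4 of 7 positive, among them Ear2 at 207 ± 32.0 and 175 ± 65.7, while Prg2 was at 1433 ± 339 and 1980 ± 1061 and Prg3 at 82.9 ± 20.0 and 116 ± 66.1 (SD, n = 3 each). Erythroid markers were summed at 601 to 1664 and 442 to 662 TPM, with 7 of 7 positive, and Car1 was at 460 ± 202 and 201 ± 71.1, Car2 at 453 ± 185 and 196 ± 65.3 and Epor at 15.1 ± 5.53 and 7.08 ± 1.40. Of 8 tested sort and stem cell markers 4 were negative, with Cd48 at 149 ± 10.7 and 238 ± 23.5. With all 6 libraries, none of these lists had a gene past the threshold. Without control 2, 1 sort and stem cell marker passed, Cd48, lower in DIC (log2 fold change -0.74, limma adjusted p = 0.02231), beside 8.45% of all tested genes. No eosinophil or erythroid marker passed in that fit.

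Genes outside the set that lie next to one of the 9 were at lower levels than it, in the order of the RefSeq annotation of GRCm38.p6. Tspoap1, beside Mpo, had a log2 fold change of -0.02 ± 0.20, Apmap, beside Cst7, of 0.03 ± 0.11, and Palm, beside Prss57, of -0.06 ± 0.13. Fstl3, which overlaps Prss57 on the opposite strand, was at 1.62 to 3.2 TPM. Beside Plac8, Cops4 was at 71.6, 77.3 and 82.5 TPM in DIC and 101, 88.1 and 93.8 in the controls (log2 fold change -0.29 ± 0.12), a smaller difference than that of Plac8, and Coq2 had -0.41 ± 0.20. None of these neighbours passed the threshold (limma adjusted p from 0.2352 to 0.9559). Plppr3, Mcpt8 and Ms4a2, given above, did not pass either (limma adjusted p = 0.2121 each). Like Cops4, these 3 genes were lower in DIC without overlap, as were 18.4% of all tested genes. Plppr3, Mcpt8 and Ms4a2 had log2 fold changes of -0.64, -2.13 and -1.06.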

How the data were processed

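RNA-seq of 6 LSK libraries, 3 DIC and 3 control, was analysed from 1 table of TPM values that the authors deposited. Trimming by fastp 0.19.5, alignment by HISAT2 2.1.0, StringTie 2.1.2 and the genome GRCm39 are listed in the submitters' processing notes. Annotation release and strand setting are not given in the sources used here. Depth cannot be read from TPM and is unknown here, and intervals for counting error are not given. Per the labels' protocols, libraries came from a SMART-Seq low-input kit.

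Symbols were matched by Ensembl identifier to a GRCm38 gene table (52081 of 56750 rows). The 9 genes and all 156 entries of the 15 gene lists matched 1 row each. No value column was left unused. Group membership of every column was clear, but the columns numbered control 1 and 4 could not be assigned to single samples. The numbers in the descriptions of the control samples do not all match those of the control columns.

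A gene was tested if it reached 1 TPM in 3 or more libraries. log2(TPM + 1) was compared by group alone with limma 3.58.1 (trended variance, R 4.3.3). Two-sided p-values were adjusted by Benjamini-Hochberg over all 13496 genes, at a threshold of 0.05, and the fit was tested on simulated data. The added 1 makes fold changes of low genes smaller than they are, and SE is the moderated standard error. The fit relative to Mpo used log2((TPM + 1) / (TPM + 1 of Mpo)) in 13495 genes. Nothing in the labels beyond the number of mice describes the replication, so p-values reflect the spread among the libraries at hand. The lowest p of an exact permutation test with 3 libraries a group is 0.1, and no such test was used.

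The genes and lists were chosen with earlier results of these data known. Named beside the 9 genes are, in each list, the 2 tested genes with the highest mean TPM and the 2 with the lowest unadjusted p, the nearest protein-coding neighbour on each side of the 9 where it passed the filter, and Kit and Ly6a. Bpi, other untested markers and overlapping genes were named after their values were seen. Promoter windows are the 250 bases before the start in RefSeq. Alternatives changed the pseudocount, filter, scaling, variance model, libraries and pairing.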

Additional observations from a re-analysis of the deposited data

How the results depend on the processing

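Of 17 alternative settings, 16 left 0 of the 9 genes past the limma threshold and 1, without control 2, called 2 genes (Ctsg and Plac8), so that the count ran from 0 to 2 with 1 library left out. At an unadjusted p under 0.05, 2 of the 9 were lower with all libraries. The median of the 9 was -0.35, between -0.461 and -0.266 with 1 library left out, -0.173 after quantile normalization and -0.145 after rescaling without secondary granule and late neutrophil genes. Relative to Mpo, 0 of the other 8 genes passed by limma in any of 14 settings (2 at an unadjusted p under 0.05 with all libraries). The fold changes of Prtn3, Ctsg, Cst7, Nkg7 and Plac8 stayed negative in every setting. Elane turned to 0.0145 after quantile normalization, 0.155 after rescaling, 0.0278 after median centring and ran from -0.15 to 0.0135 with 1 library left out (the latter without DIC 1). Mpo turned to 0.0391 after rescaling. Ms4a3 turned to 0.0778 after quantile normalization and 0.0257 after rescaling, and Prss57 to -0.00539 without DIC 2 and -0.0589 without control 4, with 0.141 at the other end (without control 1). The log2 ratios to Mpo of Ms4a3, Cst7 and Nkg7 were 0.369, 0.231 and 0.118 after quantile normalization, and that of Ms4a3 ran from -0.0541 to 0.028 with 1 library left out (the latter without DIC 2). The cause was not tested.

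Over all genes, 5 were higher and 3 lower. With a pseudocount of 0.1, 2 were higher, with a pseudocount of 5, 3 were higher, without the filter 0 were higher and 0 lower by limma (1153 and 2088 at an unadjusted p under 0.05), and after quantile normalization 1 was lower. With 1 library left out, 0 to 530 genes were higher and 0 to 1141 lower. The highest counts came without control 2, and without DIC 1 or control 4 there were 0 calls (435 higher and 804 lower, and 481 and 977, at an unadjusted p under 0.05). There were 16 higher without DIC 2 and 3 without control 1. With a replicate block over the shared numbers 1 and 2, 3 genes were higher and 5 lower, and Elane and Prss57 were at 0.0192 and -0.0421. Whether equal numbers pair the libraries is not stated in the labels. Same-numbered deviations from the group means correlated at -0.0676 and -0.102, which cannot decide it with so few libraries. The block uses 4 libraries only. Depth is unknown, and 3 libraries a group limit the precision.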
